A study of Mus musculus with 6 samples.

Results

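Satellite cells are the resident stem cells of skeletal muscle. They lie between the fibre and its basement membrane, stay quiescent in healthy adult muscle, and after injury enter the cell cycle to make myoblasts that repair or replace fibres. The 10 genes described here, Pax7, Pax3, Calcr, Cdh15, Vcam1, Chodl, Cxcr4, Sdc4, Met and Spry1, were chosen by name as genes that mark these cells or take part in their quiescence, and all 10 were found among the 19458 genes listed for each library. The group holds lineage transcription factors, receptors for secreted signals, adhesion and matrix-binding proteins, and an inhibitor of growth factor signalling. In whole muscle satellite cells are a small share of all nuclei, and Vcam1, Cxcr4, Sdc4, Met and Spry1 are also expressed by other cells of the tissue, so their level there is a sum over cell types.

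Gastrocnemius, a muscle of the calf, was profiled by RNA-seq in C57BL/6 mice aged 9 weeks. There were 3 libraries from tmem182-/- mice, which lack the muscle membrane protein Tmem182, and 3 from wild-type mice, and no treatment was labelled in either group. How the allele was made, and whether each library came from a separate animal, is not stated in the labels, so p-values measure the spread between these libraries, which may be technical. The protocol describes muscle cell culture, but the tissue label reads skeletal muscle. Fast fibre markers summed to at least 82206 FPKM (fragments per kilobase of transcript, scaled to library size) in every library, and the tissue label was followed.

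Depth ran from 16212341 to 18672630 expected counts per library (reads assigned to genes by estimation). In their source labels, knockout libraries 2 and 3 carry other Tmem numbers, while the genotype label names tmem182 for all 3. Tmem182 lay between 2.17 and 6.23 FPKM in the 3 knockout libraries and between 120.97 and 147.48 FPKM in wild type, and it was the only gene of 12774 tested that passed an adjusted p of 0.05 (edgeR's quasi-likelihood test, Benjamini-Hochberg adjustment). Knockout library 1 stood apart from the rest. Its TMM scaling factor, which corrects for a few genes taking a larger or smaller share of the reads, was 1.19 against 0.933 to 1.04 in the other 5, and its markers of fat, leukocytes and connective tissue cells were the highest of all 6.

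Some sequences help to place the genes. The gene Calcr holds a microRNA known from quiescent satellite cells, miR-489, in an intron. Its hairpin lies on chromosome 6 from 3721897 to 3722003 on the minus strand of GRCm38.p6 (RefSeq), between Calcr exons that end at 3718718 and start at 3722923 in GENCODE M21, and overlaps no exon. The mature strand is shown with its seed, bases 2 to 8, in capitals, because it lies within the Calcr gene.
miR-489-3p: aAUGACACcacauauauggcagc
Mature microRNAs were not analysed here.

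Promoters of Chodl and Sdc4 are shown because these genes were highest in library 1 of each group both in FPKM and in counts scaled to library size; Spry1 and Vcam1 were so in FPKM only. Each sequence is the 250 bases before the RefSeq start, 5′ to 3′ on the gene's own strand, with every E-box (CANNTG, the letters bound by MyoD and other bHLH factors, which read as CANNTG on either strand) in capitals. The Chodl window is chr16:78930698-78930947 on the plus strand. The Sdc4 window is chr2:164443189-164443438 on the minus strand, in an intron of a longer GENCODE M21 transcript of Sdc4.
Chodl: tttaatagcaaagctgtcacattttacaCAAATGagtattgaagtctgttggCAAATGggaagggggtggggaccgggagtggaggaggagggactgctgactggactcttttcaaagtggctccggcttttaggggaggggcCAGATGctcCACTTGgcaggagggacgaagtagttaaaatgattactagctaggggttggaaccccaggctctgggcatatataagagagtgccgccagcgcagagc
Sdc4: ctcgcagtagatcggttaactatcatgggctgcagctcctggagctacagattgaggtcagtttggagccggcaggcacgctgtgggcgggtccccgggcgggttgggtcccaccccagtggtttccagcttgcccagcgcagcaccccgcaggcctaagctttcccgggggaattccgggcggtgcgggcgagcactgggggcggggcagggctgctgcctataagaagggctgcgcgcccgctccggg
The Chodl window held 4 E-boxes and the Sdc4 window 0. GC content was 52.0% for Chodl and 68.0% for Sdc4, against a mean of 53.2% over all windows of this length. Of the 10 genes, 8 had RefSeq windows, 9 in all, and 5 of the 9 windows held at least 1 E-box, near the share of 66.2% over all 32851 windows. Only 4 of the 9 had no base in a GENCODE M21 exon of the same gene, and the windows of Cdh15 and Pax7 lay wholly in exons. The letters TGGGAA, searched on both strands as the core bound by RBPJ, the DNA-binding partner of Notch, were found in the windows of 2 genes, Chodl and Met, and in 21.6% of all windows. In Chodl they overlap the last bases of an E-box. A match is a description of the letters, and binding was not measured.

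Levels per transcript length formed steps. Over the 3 wild-type libraries Spry1 was at 10.4 ± 2.85 FPKM, Sdc4 at 8.76 ± 1.41 FPKM and Cdh15 at 8.51 ± 0.68 FPKM (SD, n = 3 each), and the ranges of these 3 genes overlapped. Met at 2.33 ± 0.10 FPKM and Chodl at 2.23 ± 0.49 FPKM overlapped each other, as did Cxcr4 at 1.28 ± 0.28 FPKM and Pax7 at 1.27 ± 0.11 FPKM (SD, n = 3 each). Vcam1 followed at 0.66 ± 0.08 FPKM, with a range apart from both neighbours. Calcr at 0.13 ± 0.05 FPKM and Pax3 at 0.027 ± 0.025 FPKM (SD, n = 3 each) were lowest, and their ranges did not overlap either. Over all 6 libraries the mean of Spry1 exceeded that of 79.9% of listed genes, that of Pax7 47.9% and that of Pax3 25.2%.

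**Figure D1:**
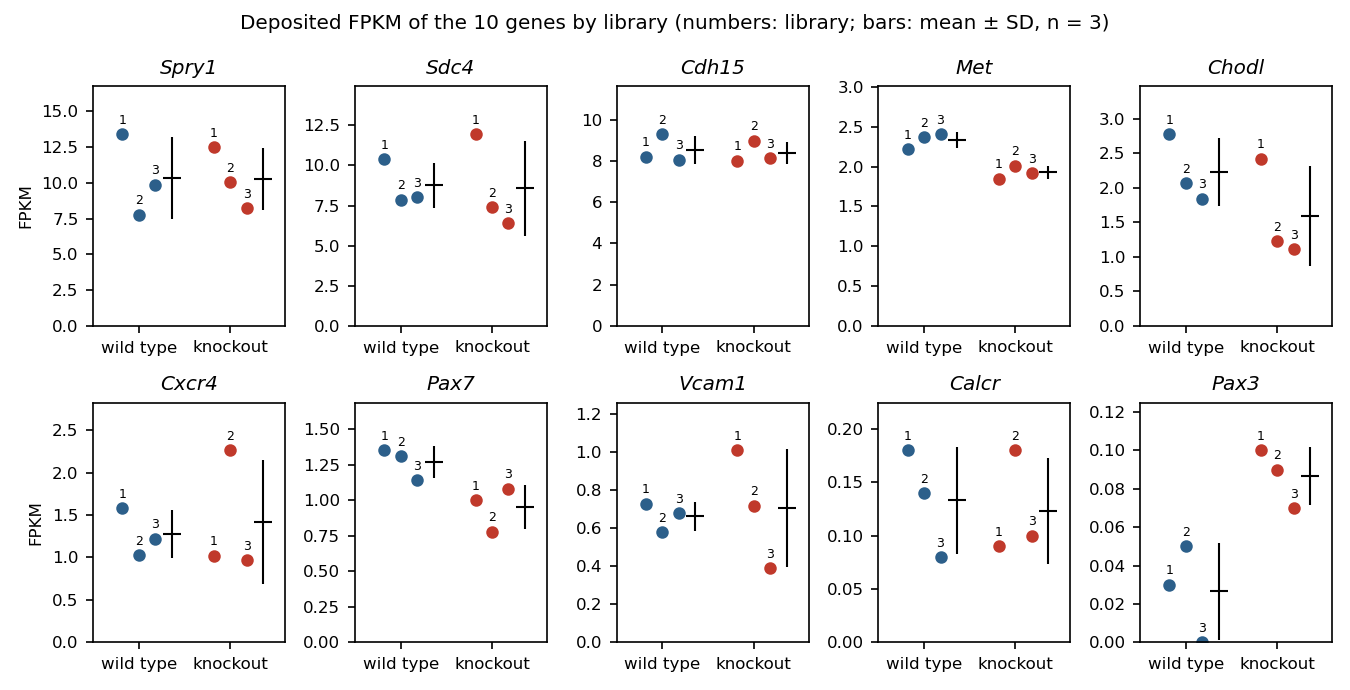
Deposited FPKM (y axis, linear, from 0) of the 10 genes in the 3 wild-type (blue) and 3 knockout (red) libraries, numbered by library, with black bars for mean ± SD (n = 3). Pax7 and Met lie lower and Pax3 higher in every knockout library than in every wild-type library, and the groups overlap for the other 7 genes. On this scale 1.7% of all tested genes lay lower without overlap and 5.86% higher, shares that leave out Pax3 as too low to be tested.

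The central comparison asks whether these transcripts differ when Tmem182 is absent. Pax7 and Met were lower in all 3 knockout libraries than in any wild-type library, at 0.73 and 0.80 times the wild-type level in the fit. Chodl had the lowest estimate, 0.68 times wild type, but its groups overlapped. Cdh15, Sdc4, Spry1 and Vcam1 had estimates between 0.92 and 0.996 times wild type, and Cxcr4 had one of 1.08.

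After adjustment over all 12774 genes tested, 0 of the 8 testable genes passed 0.05 by edgeR, where the background share called was 0.00783% (Tmem182 alone), and 0 passed by DESeq2, which called 0.047% of genes. By edgeR 1 of the 8, Pax7, had an unadjusted p under 0.05, and by DESeq2 0 of the 8 had one. Over all tested genes 3.55% had one by edgeR, 1.48% with a lower level in the knockout. The edgeR estimate of log2 fold change was below 0 for 7 of the 8, with a median of -0.10. It was below 0 for 48.9% of all tested genes, with a median of 0.0046. The 7 include Vcam1 at -0.006 and Cdh15 and Spry1 at -0.08, and only 4 members stayed below 0 in every fit run. All 8 were read in the same libraries, so their directions are not independent. Groups did not overlap for 2 of the 8, both lower in the knockout, where 4.51% of all tested genes lay lower without overlap and 4.67% lay higher, or 9.18% in either direction. On the deposited FPKM scale the same 2 were apart, against 1.7% of genes lower and 5.86% higher. In whole muscle RNA, fewer satellite cells and less of a transcript per cell cannot be told apart.

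**Figure D2:**
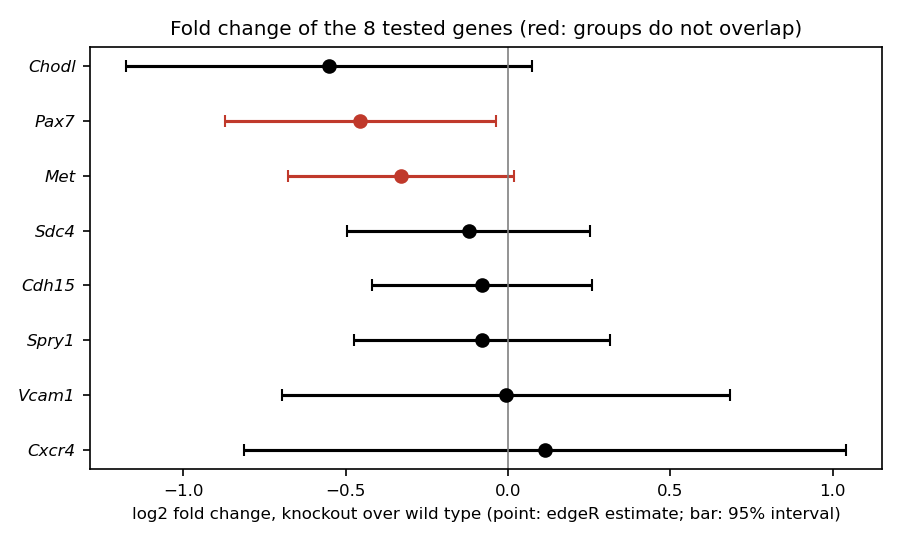
Log2 fold change of knockout over wild type (x axis) for the 8 tested genes, as edgeR estimates with 95% intervals, with red for genes whose groups do not overlap. The interval of Pax7 lies below 0, from -0.87 to -0.04, before any adjustment, and those of the other 7 include 0.

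Pax7 and Pax3 are the paired-box transcription factors of the muscle lineage. Pax7 is the defining factor of adult satellite cells and is needed to maintain them, and Pax3 acts mainly in muscle precursors of the embryo and in satellite cells of some muscles. Pax7 (Entrez gene 18509) occupies bases 139737062 to 139833528 of chromosome 4, GRCm38, minus strand. It was at 1, 0.78 and 1.08 FPKM in knockout libraries 1, 2 and 3, from 88, 76 and 105 expected counts. The wild types, in the order 1, 2 and 3, gave 1.35, 1.31 and 1.14 FPKM out of 129, 133 and 108 expected counts. The highest knockout library was thus close to the lowest wild-type library, and knockout library 2 was the lowest of all. Knockout over wild type, the log2 fold change came to -0.45 (SE 0.18, 95% interval -0.87 to -0.04, unadjusted p = 0.0361, adjusted p = 0.994 by edgeR), so a wild-type multiple from 0.55 to 0.97 was inside the interval. Counting error alone was between 8.67% and 11.5% of a library's value, and the coefficient of variation was 19.7% within the knockout and 7.43% within wild type. With each library left out in turn the log2 fold change stayed between -0.63 and -0.37, and the adjusted p was at least 0.893. The unadjusted edgeR p of these fits ran from 0.00789 to 0.114. With all 6 libraries the unadjusted p was 0.0547 by DESeq2. Over 9 other settings it ran from 0.0219 by limma-voom with quality weights to 0.108 by limma on log2(FPKM + 0.1).

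Pax3 (Entrez gene 18505, located on chromosome 1 between 78101267 and 78197134, minus strand) was too low to be tested. It had 6.00, 6.03 and 4.02 expected counts across knockouts 1 to 3 and 1.67, 3.36 and 0 in the wild-type libraries, or 16.05 against 5.03 in all. Its FPKM were 0.10, 0.09 and 0.07 against 0.03, 0.05 and 0. Groups did not overlap, in the direction opposite to Pax7. Of all tested genes 4.67% lay higher without overlap in counts scaled to library size, and 5.86% did in FPKM. Both shares leave out genes too low to be tested, such as Pax3. The two-sided exact permutation test of CPM (counts scaled to library size by TMM; 0.299 against 0.0921 on average) gave p = 0.1, which is the lowest value possible with 3 libraries in each group. The count of 0 in wild-type library 3 allows up to 3 counts, or 0.178 CPM, which is counting error only. Part of the counts are not whole numbers, so reads were divided between genes or transcripts by estimation.

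The other Pax genes that were found were low. Pax1, Pax2, Pax5, Pax6 and Pax9 were at or below 0.11 FPKM in all 6 libraries, Pax8 was at 0 in each, and Pax4 had no match in the tables. Pax7 was the only family member that could be tested. Among 18 other satellite cell markers, all of which were tested, 0 passed the threshold by edgeR, 1 had an unadjusted p under 0.05, and the median log2 fold change was -0.07. Fgfr4, a fibroblast growth factor receptor of satellite cells and myoblasts, had the smallest p of that list. It measured 1.77, 1.33 and 1.29 FPKM across knockouts 1 to 3 and 2.16, 1.67 and 1.80 FPKM across wild types 1 to 3 (-0.43 on the log2 scale, SE 0.16, edgeR adjusted p = 0.994). On TMM-scaled CPM its groups did not overlap, and it was the 1 gene of the 18 for which that held, beside 9.18% of all tested genes, while on the FPKM scale knockout library 1 lay above wild-type library 2. Cd82, a tetraspanin, came next at 0.41 (SE 0.23) on the log2 scale, with overlapping groups. Myf5, the early myogenic factor present in many satellite cells, measured 0.56, 0.35 and 0.48 FPKM beside 0.52, 0.62 and 0.50 FPKM in the same order.

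Receptors for secreted signals came next. Met is the receptor tyrosine kinase for hepatocyte growth factor, the signal that starts satellite cell activation. It (Entrez gene 17295, located on chromosome 6 between 17463800 and 17573980, plus strand) was at 1.85, 2.01 and 1.92 FPKM in knockout libraries 1, 2 and 3. In wild-type libraries 1, 2 and 3 it was at 2.22, 2.37 and 2.41 FPKM, and counts over all 6 ran from 198 to 292. All knockout values were lower, but on TMM-scaled CPM knockout library 2 at 14.1 nearly met wild-type library 1 at 14.2. The log2 fold change was -0.33 (SE 0.15, with a 95% interval of -0.68 to 0.02, unadjusted p = 0.0605, adjusted p = 0.994 by edgeR). It was -0.20 without knockout library 1 and -0.42 without knockout library 2. The ligand gene Hgf was at or below 0.08 FPKM in all 6 libraries and could not be tested. Gab1 and Grb2, the adaptors that carry the Met signal, were estimated, as log2 fold changes, at 0.12 (SE 0.15) and -0.06 (SE 0.12).

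Calcr, the calcitonin receptor, is a marker of quiescent satellite cells and helps to hold them in quiescence. It (Entrez gene 12311, located on chromosome 6 between 3685680 and 3764714, minus strand) was too low to be tested, with 5, 12 and 6 expected counts across knockouts 1 to 3 and 11, 9 and 5 in wild type. Groups overlapped fully, at a mean of 0.438 against 0.466 CPM (two-sided exact permutation p = 0.9), and a change was not detectable at this depth. Of the genes for its accessory proteins, Ramp1 and Ramp2 were estimated, as log2 fold changes, at 0.12 (SE 0.20) and -0.28 (SE 0.14), with overlapping groups. Ramp3 stayed at or below 0.64 FPKM and Calca, which encodes calcitonin and its related peptide, at or below 0.05 FPKM.

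Cxcr4 is the chemokine receptor for Cxcl12 and serves migration of muscle precursors, leukocytes and endothelial cells. It (Entrez gene 12767, located on chromosome 1 between 128588199 and 128592293, minus strand) measured 1.02, 2.26 and 0.97 FPKM for the mutant libraries beside 1.58, 1.03 and 1.22 FPKM for the wild types. Knockout library 2 was the highest of all 6 and the other knockout libraries were the lowest 2. The edgeR estimate of log2 fold change was 0.11 (SE 0.40, with a 95% interval of -0.81 to 1.04, adjusted p = 0.994), and without knockout library 2 it was -0.47. Endothelial and leukocyte markers of knockout library 2 lay at 0.06 and -0.29 from the mean of the 6 libraries on the log2 scale. Which cells gave the Cxcr4 value of that library was not tested. The ligand gene Cxcl12 measured 50.83, 25.70 and 23.64 FPKM beside 36.39, 24.91 and 28.45 FPKM in the same order (0.11 on the log2 scale, SE 0.26). Ackr3, the other Cxcl12 receptor, was estimated at a log2 fold change of 0.18 (SE 0.16).

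Among adhesion and matrix-binding proteins, Cdh15 encodes M-cadherin, found on satellite cells and myoblasts at their contact with the fibre. Cdh15 (Entrez gene 12555, located on chromosome 8 between 122847966 and 122867397, plus strand) measured 8, 8.98 and 8.14 FPKM without Tmem182 and 8.19, 9.30 and 8.05 FPKM with it. In FPKM the highest library exceeded the lowest 1.16-fold, the smallest such ratio of the 4 adhesion and matrix-binding genes, while TMM-scaled CPM ran from 19.3 to 27.7. Groups overlapped on both scales. The log2 fold change of -0.08 (SE 0.15, edgeR adjusted p = 0.994) had an interval from 0.75 to 1.2 times wild type. A gene on the same strand, Gm20388, overlaps Cdh15, and counts near it cannot be separated with certainty. The other cadherins measured, Cdh2, Cdh4, Cdh11 and Cdh13, had log2 fold changes between -0.14 and 0.04, and Cdh4 ranged from 0.79 FPKM in knockout library 1 to 9.45 FPKM in knockout library 3.

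Vcam1, the partner of integrin alpha 4 beta 1, is used to sort quiescent satellite cells and is also made by activated endothelium. It (Entrez gene 22329, located on chromosome 3 between 116109949 and 116129688, minus strand) measured 1.01, 0.72 and 0.39 FPKM across knockouts 1 to 3 and 0.73, 0.58 and 0.68 FPKM across wild types 1 to 3, so the knockout held both the highest and the lowest library. Knockout over wild type, the log2 fold change came to -0.01 (SE 0.30, 95% interval -0.70 to 0.68, edgeR adjusted p = 0.999). Without knockout library 3 it was 0.24 and without knockout library 1 it was -0.22. The integrin subunit genes Itga4 and Itgb1 were estimated, as log2 fold changes, at -0.23 (SE 0.21) and 0.28 (SE 0.14), with overlapping groups. The opposite-strand gene Gm43109 overlaps Vcam1, and use of strand in the counting was not given in the sources used here.

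Chodl encodes chondrolectin, a membrane lectin enriched in quiescent satellite cells. It (Entrez gene 246048, located on chromosome 16 between 78930948 and 78951733, plus strand) was at 2.42, 1.23 and 1.11 FPKM in knockout libraries 1, 2 and 3, from 112, 59 and 52 expected counts. The wild types, in the order 1, 2 and 3, gave 2.78, 2.07 and 1.84 FPKM out of 131, 103 and 89 expected counts. Knockout libraries 2 and 3 were below every wild-type library, and knockout library 1 lay within the wild-type range. The log2 fold change was -0.55 (SE 0.27, with a 95% interval of -1.18 to 0.07, unadjusted p = 0.0756, adjusted p = 0.994 by edgeR). Without knockout library 1, the one inside the wild-type range, it was -0.89 (edgeR unadjusted p = 0.00281, adjusted p = 0.904). Without knockout library 3 it was -0.38 (edgeR unadjusted p = 0.200). With any library other than knockout library 1 left out, the unadjusted edgeR p lay between 0.0822 and 0.213.

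Sdc4 encodes syndecan 4, a heparan sulphate proteoglycan that marks satellite cells and presents growth factors, and is also made by many other cells. It (Entrez gene 20971, located on chromosome 2 between 164424247 and 164443887, minus strand) measured 11.96, 7.38 and 6.39 FPKM for the mutant libraries beside 10.38, 7.86 and 8.03 FPKM for the wild types. As for Chodl, library 1 was the highest in each group. The edgeR estimate of log2 fold change was -0.12 (SE 0.16, with a 95% interval of -0.49 to 0.25, adjusted p = 0.994). It was -0.30 without knockout library 1, -0.04 without wild-type library 1 and -0.0045 without knockout library 3. Its relatives Sdc1, Sdc2 and Sdc3 were estimated, as log2 fold changes, at 0.01 (SE 0.28), 0.04 (SE 0.16) and -0.12 (SE 0.24). Sdc3, the other syndecan known from satellite cells, measured 8.14, 4.45 and 3.62 FPKM beside 7.17, 4.22 and 5 FPKM in the same order, again highest in library 1 of each group.

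Spry1 encodes Sprouty 1, an inhibitor of receptor tyrosine kinase signalling that lets cycling satellite cells return to quiescence. It (Entrez gene 24063, located on chromosome 3 between 37639947 and 37644598, plus strand) measured 12.49, 10.05 and 8.21 FPKM without Tmem182 and 13.41, 7.77 and 9.88 FPKM with it. Wild type held both the highest and the lowest library. Knockout over wild type, the log2 fold change came to -0.08 (SE 0.17, 95% interval -0.47 to 0.31, edgeR adjusted p = 0.994), an interval from 0.72 to 1.24 times wild type. An opposite-strand gene, Gm42922, overlaps Spry1. Among its relatives Spry2 and Spry4 were estimated, as log2 fold changes, at -0.09 (SE 0.14) and 0.01 (SE 0.17), Spred3 had the largest at 0.49 (SE 0.27), and Spry3 was at or below 0.05 FPKM.

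**Figure D3:**
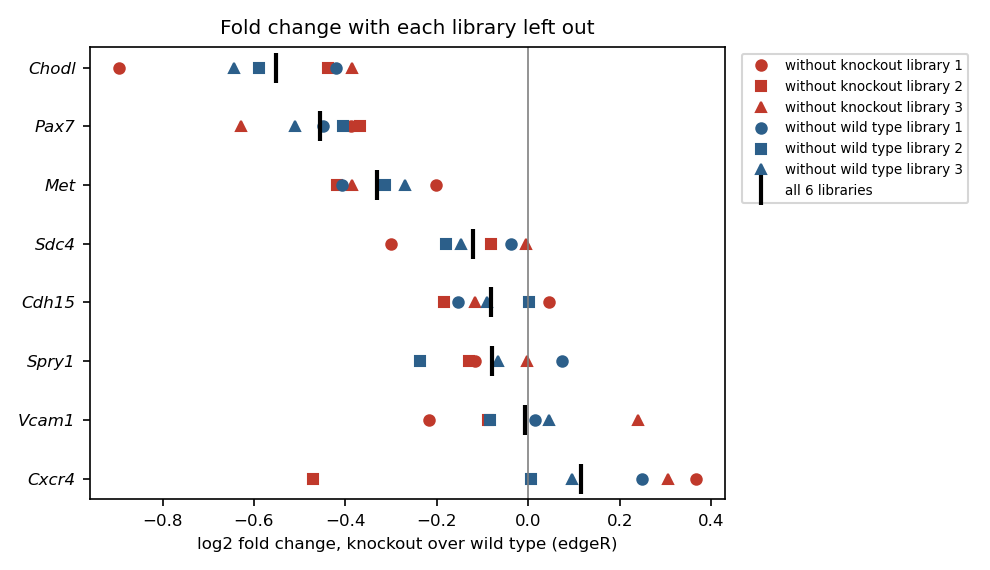
Log2 fold change of knockout over wild type (x axis, edgeR) for the 8 tested genes with all 6 libraries (black bar) and with each library left out (symbols). Pax7, Met, Chodl and Sdc4 stay below 0 in each of these 6 fits, and Cxcr4 runs from -0.47 to 0.37.

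Libraries of the same genotype also differed among themselves. Slow fibre markers, all 11 of them tested, summed to 2912.75, 1938.06 and 129.34 FPKM across the knockouts beside 890.30, 95.69 and 720.84 FPKM in wild type. Endothelial markers, 12 of 12 tested, summed to 251.52, 149.69 and 109.63 FPKM against 187.13, 118.86 and 148.63 FPKM. Schwann cell markers, 10 of 10 tested, summed to 314.59, 51.71 and 90.23 FPKM across the knockouts and 207.78, 20.86 and 39.94 FPKM across the wild types. Library 1 was thus the highest of each group in these 3 lists. It was also the highest of each group in FPKM for Sdc4, Chodl, Spry1 and Vcam1, and on TMM-scaled CPM for Sdc4 and Chodl, while Pax7 and Met were not highest in knockout library 1 on either scale. With slow fibre level added as covariate the log2 fold changes of Pax7, Met and Chodl were -0.38, -0.30 and -0.69, and 0 of the 8 genes passed. Leukocyte and macrophage markers, 10 of 12 tested, summed to between 22.69 and 68.90 FPKM in the knockout and between 21.79 and 31.65 FPKM in wild type. Fibro-adipogenic progenitor markers, 12 of 12 tested, summed to between 412.78 and 855.07 FPKM in the knockout and between 430.85 and 748.47 FPKM in wild type. Adipocyte markers, 9 of 10 tested, summed to between 187.52 and 652.32 FPKM in the knockout and between 143.53 and 304.41 FPKM in wild type. These lists leaned the other way from the 8 tested satellite cell genes, with log2 fold changes above 0 for 11 of 11 slow fibre (median 1.5), 10 of 12 endothelial (0.11), 9 of 10 Schwann cell (0.56), 10 of 10 leukocyte (0.69), 10 of 12 progenitor (0.22) and 9 of 9 adipocyte markers (1.23). Smooth muscle and pericyte markers were above 0 for 7 of 9 (median 0.12). Fast fibre markers leaned the same way as the 8 genes, below 0 for 11 of 12 (median -0.19). Other satellite cell markers were below 0 for 10 of 18. By edgeR 0 markers of the 6 lists summed above passed the threshold. In those lists an unadjusted p under 0.05 was found for 1 slow fibre, 0 endothelial, 0 Schwann cell, 2 leukocyte, 1 progenitor and 2 adipocyte markers. Over all tested genes it was found for 3.55%. The progenitor marker was Pi16, which lay higher in every knockout library, as 4.67% of all tested genes did on TMM-scaled CPM. In FPKM knockout library 2 at 8.22 nearly met wild-type library 1 at 8.02. No marker of these 6 lists was at 0 in any library, and the part of other cell types in the values of those 8 genes was not tested.

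**Figure D4:**
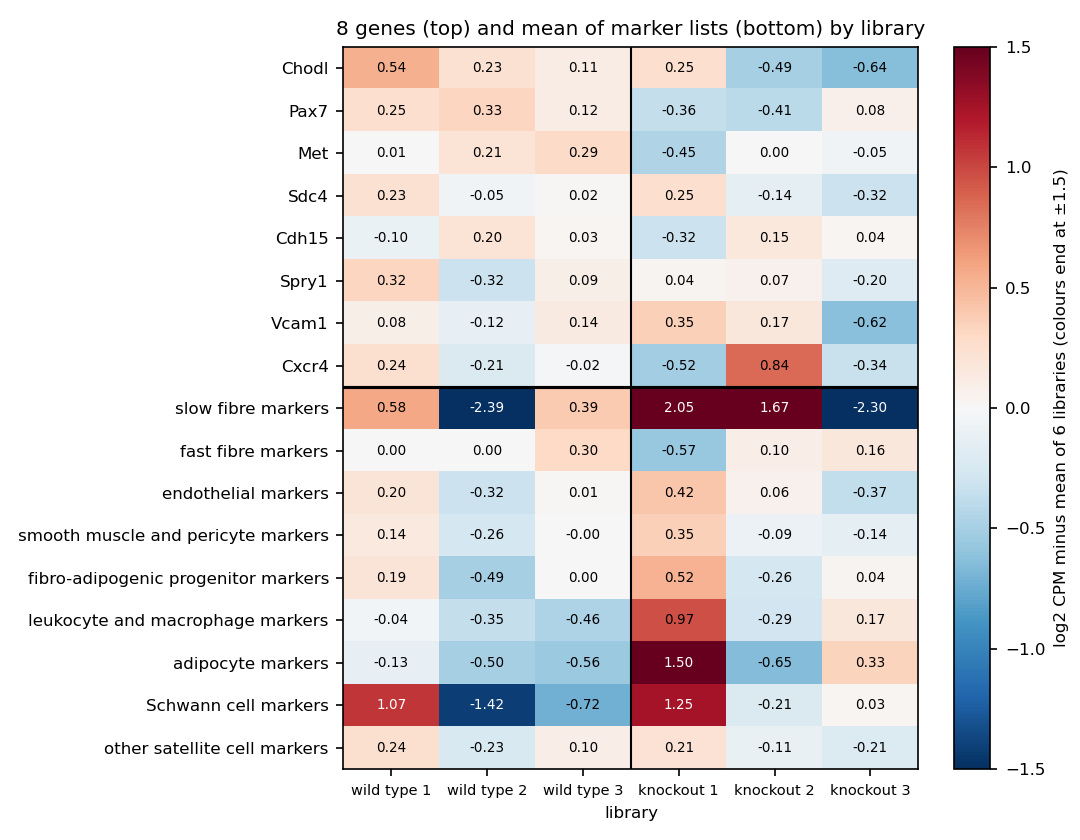
Deviation of log2 CPM from the mean of the 6 libraries (colour and printed number) for the 8 tested genes (top) and for the mean of each marker list (bottom), by library. Sdc4, Chodl, Spry1 and Vcam1 are above their mean in library 1 of both groups, and slow fibre markers run from -2.39 in wild-type library 2 to 2.05 in knockout library 1.

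Pathways that hold satellite cells in quiescence or release them from it gave 0 called genes by edgeR, and the lists other than Notch gave 0 with an unadjusted p under 0.05. Notch signalling, which keeps satellite cells quiescent, had 16 of 17 genes tested with a median log2 fold change of -0.08. Nrarp, a Notch target and feedback inhibitor, measured 4.31, 4.64 and 3.56 FPKM across knockouts 1 to 3 and 3.24, 2.27 and 2.97 FPKM across wild types 1 to 3 (0.50 on the log2 scale, SE 0.18, edgeR adjusted p = 0.994). Hes1, another Notch target, was highest in knockout library 1, with 23.64, 12 and 10.47 FPKM beside 10.28, 8.93 and 10.25 FPKM in wild type (0.53 on the log2 scale, SE 0.22, edgeR adjusted p = 0.994). These 2 had the only unadjusted p under 0.05 among the 16, beside 3.55% of all tested genes. Both lay higher in every knockout library, as 4.67% of all tested genes did. The targets Hey1 and Heyl, also on the list of other satellite cell markers, had overlapping groups. They were at -0.23 (SE 0.20) and 0.02 (SE 0.14) on the log2 scale. Which cells of the muscle gave the values of these Notch targets was not tested. Cell cycle inhibitors and other quiescence regulators, 14 of 14 tested, had a median of 0.04. The smallest p was for Foxo3 (-0.13, SE 0.08) and Foxo4 (-0.16, SE 0.11). Both were lower in every knockout library on TMM-scaled CPM, as 4.51% of all tested genes were. In FPKM the groups of both overlapped. Knockout library 1 was at 5.17 FPKM for Foxo3, above every wild-type library, and at 37.63 FPKM for Foxo4, above wild-type library 3 at 37.30. Myogenic activation and differentiation genes, 10 of 12 tested, had a median of 0.12, with Mef2c, a differentiation factor also active in fibres, at 0.28 (SE 0.13) and higher in every knockout library, and Ccnd1, a cyclin of cell cycle entry, at 0.24 (SE 0.14). All medians stand beside 0.0046 for all tested genes.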

How the data were processed

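Expected counts and FPKM were deposited per library by the authors in tables of 19458 genes, per the file headers. The deposited counts are not normalized, and 26.2% to 27.5% of values per library are not whole, as RSEM-type estimation gives; FPKM were rounded to 2 decimals by the authors. The submitters' processing notes name HISAT2 2.0.4, Bowtie2 2.2.5, RSEM 1.2.12 and GRCm38; their roles, the annotation, read filters and strand handling: not given in the sources used here.

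Counts were rounded to whole numbers, filtered with filterByExpr (minimum count 10; 12774 genes kept), scaled by TMM and tested with edgeR 4.0.16 (R 4.3.3; quasi-likelihood, two-sided, no covariate, Benjamini-Hochberg over all genes tested, threshold 0.05). Each SE was derived as log2 fold change over root F, without sign, and intervals are at 95%. Log2 CPM used a prior count of 2. Library pairs differed beyond counting noise (chi-square per degree of freedom at least 13.6). Scripts were tested on simulated data.

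Alternatives were DESeq2 size factors, dropping the filter, keeping only genes averaging at least 1 FPKM, DESeq2 1.42.0, limma 3.58.1 on log2(FPKM + 1) and log2(FPKM + 0.1), limma-voom with quality weights, a replicate block, the slow fibre level as covariate, an adjusted p of 0.10, and each library left out. Genes named are the 10 members, Tmem182, their listed relatives and partners, and 3 genes most like Pax7. Of each further list whose genes are named, the 2 genes with the smallest p are given (for the cell type and fibre lists only Pi16 is). Myf5, Hey1, Heyl, Myod1, Myog, Mcm3, Mcm6 and the untested cell cycle genes were added after their values were seen. Members and lists were chosen with earlier results of these data known. Positions are from GENCODE M21.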

Additional observations from a re-analysis of the deposited data

How the results depend on the processing

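The call of 0 members held in all 16 alternatives, including no filter, where all 10 genes were tested, and a mean of at least 1 FPKM, which left out Vcam1. Of 119 fits of single members under alternatives, 0 gave an adjusted p under 0.05, and the lowest was 0.561. Pax7, Met, Chodl and Sdc4 had log2 fold changes below 0 in every fit run. Over all genes DESeq2 called 6 in place of 1, and leaving out 1 library gave from 0 to 1 called genes, with 0 without knockout library 2 or wild-type library 3. Directions turned for members near 0, and the cause was not tested. Cdh15 was at 0.061 with limma-voom and from -0.19 to 0.045 with a library left out. Vcam1 was at 0.022 on log2(FPKM + 1), at 0.0063 on log2(FPKM + 0.1) and from -0.22 to 0.24 with a library left out. Cxcr4 was at -0.029 with the slow fibre covariate and from -0.47 to 0.37 with a library left out. Spry1 was at 0.00037 on log2(FPKM + 0.1) and from -0.24 to 0.075 with a library left out. The knockout minus wild-type CPM of Calcr ran from -0.158 to 0.0609 with a library left out. Whether the replicate numbers pair the libraries was not settled by the data. Deviations of same-numbered libraries correlated at 0.524, 0.179 and -0.122, and those of different-numbered libraries at -0.474 to 0.427. With the replicate block 1 gene and 0 members were called, and Pax7 was at -0.47. An unadjusted edgeR p under 0.05 was found for 743 genes with the block and 453 without it. Among members it was found for 3 with the block and 1 without it. Depth limits Pax3 and Calcr, with at most 6.03 and 12 counts in a library.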

Other observations

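Markers of cycling cells, a state that quiescent satellite cells lack, were low in both groups. Mki67, Top2a, Ccnb1, Ccna2, Cdk1 and Bub1 were all under the count filter, at or below 0.3 FPKM. Each had a higher mean in the knockout, such as 0.06 against 0.02 FPKM for Mki67 and 0.17 against 0.10 FPKM for Ccna2. Counts reached at most 12 and 13.67 in a library for these examples, and the differences were not tested. In FPKM 5.86% of all tested genes lay higher in the knockout without overlap and 1.7% lower. These shares leave out genes too low to be tested. Of the 6 tested genes of the list 0 passed the threshold by edgeR and 0 had an unadjusted p under 0.05 (median log2 fold change 0.12, beside 0.0046 for all tested genes). Mcm2, a subunit of the replicative helicase, measured 4.35, 3.43 and 4.45 FPKM without Tmem182 and 3.67, 3.42 and 3.31 FPKM with it (0.17 on the log2 scale, SE 0.13, edgeR adjusted p = 0.994). Mcm5, of the same complex, was at or below 0.66 FPKM in all 6 libraries (log2 fold change 0.39, SE 0.32). The regulators Myod1 and Myog, which mark committed myoblasts but are also transcribed in fibre nuclei, were estimated, as log2 fold changes, at 0.0051 (SE 0.23) and -0.27 (SE 0.23).

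Among 10330 tested genes with a mean of at least 1 FPKM, Lsmem2, Oard1 and Adora1 had log2 CPM most like Pax7 over the 6 libraries, as a description of 6 points that share their depth and scaling. Lsmem2 measured 11.42, 8.74 and 10.62 FPKM without Tmem182 and 13.71, 11.79 and 10.89 FPKM with it. Oard1 was at 8.58, 6.94 and 7.43 FPKM against 8.75, 8.34 and 7.25 FPKM, and Adora1, an adenosine receptor, at 0.28, 0.26 and 1.07 FPKM against 2.31, 2.31 and 0.94 FPKM. Likeness was measured by Pearson's r, which was at least 0.988 for these 3, and with so many genes and 6 libraries values of this size are a ranking and not a result.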
